A study of Homo sapiens with 12 samples.

Results

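G2 and mitosis genes, 40 protein-coding genes that act between the end of DNA replication and the splitting of the daughter cells, were followed in HT-29 and LAD2 cells. They were taken by gene symbol from known function and not by a cut on their values, but with earlier results of these data known. All 40 were found among the 58721 genes of the count table. The set holds CDK1 with its cyclins and CDC25 phosphatases (6 genes), mitotic kinases and their partners (6), the spindle checkpoint (4), the anaphase ubiquitin pathway (3), centromere and kinetochore proteins (5), mitotic kinesins (5), spindle microtubule proteins (6), cytokinesis proteins (3) and mitotic chromosome proteins (2).

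HT-29 is a human colorectal cancer cell line and LAD2 a human mast cell line, and neither carried a stated genetic change. Each line was sampled alone or after direct contact with the other line for 12 hours, and the study asked how mast cells and colorectal cancer cells act on each other. HT-29 was kept in serum-supplemented McCoy 5A medium and LAD2 in SP34 medium, and the sources used here state neither a coculture medium nor how the lines were parted again. Alone and coculture had 3 libraries each for HT-29, and LAD2 alone had 3. The 3 columns of LAD2 in coculture were equal in all genes and were counted as 1 library, so that each LAD2 response is 1 library against 3.

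Cells enter mitosis when cyclin B binds CDK1 and CDC25 phosphatases remove the phosphates that hold the complex inactive. PLK1 and the Aurora kinases then drive spindle assembly, the spindle checkpoint holds CDC20 until every kinetochore is attached, and the anaphase-promoting complex afterwards marks cyclin B and securin for destruction. Transcripts of these genes are low in G1 and peak in G2 and M phase, so that their level in a culture depends in part on the share of cells in those phases. The counts hold no measure of that share. Their promoters are known for the cell cycle genes homology region (CHR), bound by the MuvB complex that carries B-MYB or repressive partners, and for CCAAT boxes, bound by NF-Y.

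RefSeq promoters (GRCh38.p14, 250 bases before to 50 after the start site) were matched for 34 of the 40 genes, all but AURKA, TPX2, BIRC5, TTK, UBE2C and RACGAP1. The promoters below belong to genes that differed between coculture and alone in one of the lines, and they show how far the members share these letters. Capitals mark the CHR (TTTGAA or TTCGAA on either strand) and the CCAAT box (CCAAT on either strand, so ATTGG on the strand shown). Each runs 5′ to 3′ along its gene.
CCNB2: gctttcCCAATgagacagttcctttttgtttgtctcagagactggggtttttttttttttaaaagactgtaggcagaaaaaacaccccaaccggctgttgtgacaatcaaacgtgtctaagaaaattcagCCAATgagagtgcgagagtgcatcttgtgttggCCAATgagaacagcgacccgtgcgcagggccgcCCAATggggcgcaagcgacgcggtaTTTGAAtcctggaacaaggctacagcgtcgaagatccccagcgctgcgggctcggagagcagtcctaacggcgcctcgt
PLK1: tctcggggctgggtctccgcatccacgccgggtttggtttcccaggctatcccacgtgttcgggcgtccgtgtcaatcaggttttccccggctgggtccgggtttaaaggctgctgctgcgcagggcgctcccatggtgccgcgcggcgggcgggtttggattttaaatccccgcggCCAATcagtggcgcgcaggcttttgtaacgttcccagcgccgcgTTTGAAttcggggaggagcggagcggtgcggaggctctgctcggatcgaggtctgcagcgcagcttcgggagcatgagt
MAD2L1: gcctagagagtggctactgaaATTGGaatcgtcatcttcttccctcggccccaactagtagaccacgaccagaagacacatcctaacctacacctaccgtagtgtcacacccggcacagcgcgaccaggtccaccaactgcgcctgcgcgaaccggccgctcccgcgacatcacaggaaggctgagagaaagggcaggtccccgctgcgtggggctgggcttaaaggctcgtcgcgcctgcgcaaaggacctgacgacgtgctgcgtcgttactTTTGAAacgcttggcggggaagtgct
ECT2: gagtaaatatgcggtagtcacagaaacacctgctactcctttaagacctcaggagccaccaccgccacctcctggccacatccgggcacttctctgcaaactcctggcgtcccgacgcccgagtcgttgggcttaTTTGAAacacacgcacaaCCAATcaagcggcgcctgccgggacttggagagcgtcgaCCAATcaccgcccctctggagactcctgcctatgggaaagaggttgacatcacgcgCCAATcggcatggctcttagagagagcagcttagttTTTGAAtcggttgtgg
ANLN: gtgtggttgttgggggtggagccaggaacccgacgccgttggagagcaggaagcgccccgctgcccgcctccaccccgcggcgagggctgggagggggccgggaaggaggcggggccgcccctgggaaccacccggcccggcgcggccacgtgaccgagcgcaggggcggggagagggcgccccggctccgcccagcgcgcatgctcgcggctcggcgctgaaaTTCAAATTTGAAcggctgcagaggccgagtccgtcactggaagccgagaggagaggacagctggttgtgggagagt
CCNA2: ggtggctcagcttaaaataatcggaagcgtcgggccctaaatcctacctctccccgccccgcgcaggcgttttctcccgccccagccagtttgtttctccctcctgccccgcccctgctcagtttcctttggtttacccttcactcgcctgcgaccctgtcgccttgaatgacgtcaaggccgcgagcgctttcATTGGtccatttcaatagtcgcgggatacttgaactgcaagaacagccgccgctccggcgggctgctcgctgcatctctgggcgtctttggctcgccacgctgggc
CDC25B: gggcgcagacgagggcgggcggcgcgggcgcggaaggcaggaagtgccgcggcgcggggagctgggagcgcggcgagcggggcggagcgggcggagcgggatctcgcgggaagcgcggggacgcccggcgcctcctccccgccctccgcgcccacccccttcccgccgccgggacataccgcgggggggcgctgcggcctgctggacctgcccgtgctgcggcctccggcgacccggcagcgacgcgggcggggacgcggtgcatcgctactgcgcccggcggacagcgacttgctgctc

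CCNB2 is read from chr15:59104896-59105195 on the plus strand, PLK1 from chr16:23678639-23678938 on the plus strand and MAD2L1 from chr4:120066799-120067098 on the minus strand. ECT2 lies at chr3:172750476-172750775, ANLN at chr7:36389612-36389911 and CDC25B at chr20:3786701-3787000, all on the plus strand, and CCNA2 at chr4:121823834-121824133 on the minus strand. CCNB2 and PLK1 both had their CHR 29 bases before the start site, and CCNB2 had 4 CCAAT boxes upstream of it. ANLN had CHR letters on both strands directly next to each other, 26 and 20 bases before the start site, and no CCAAT box. CCNA2 had a CCAAT box and no match to the CHR letters, and CDC25B had neither, which says only that these letters are not in the window.

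The CHR letters stood in 23 of the 34 member promoters (67.6%), against 16.6% of all 27305 promoters of the same length. Within 50 bases of the start site they stood in 18 members (52.9%), against 5.05% of all promoters. A CCAAT box stood in 25 members (73.5% against 35.7%), at least 2 boxes in 16 (47.1% against 11.3%), and both motifs in 19 (55.9% against 6.58%). CDC25B, CDC25C, CENPE, KIF2C and CKAP2 had neither motif. A match is a description of letters and not a measured binding site.

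**Figure D1:**
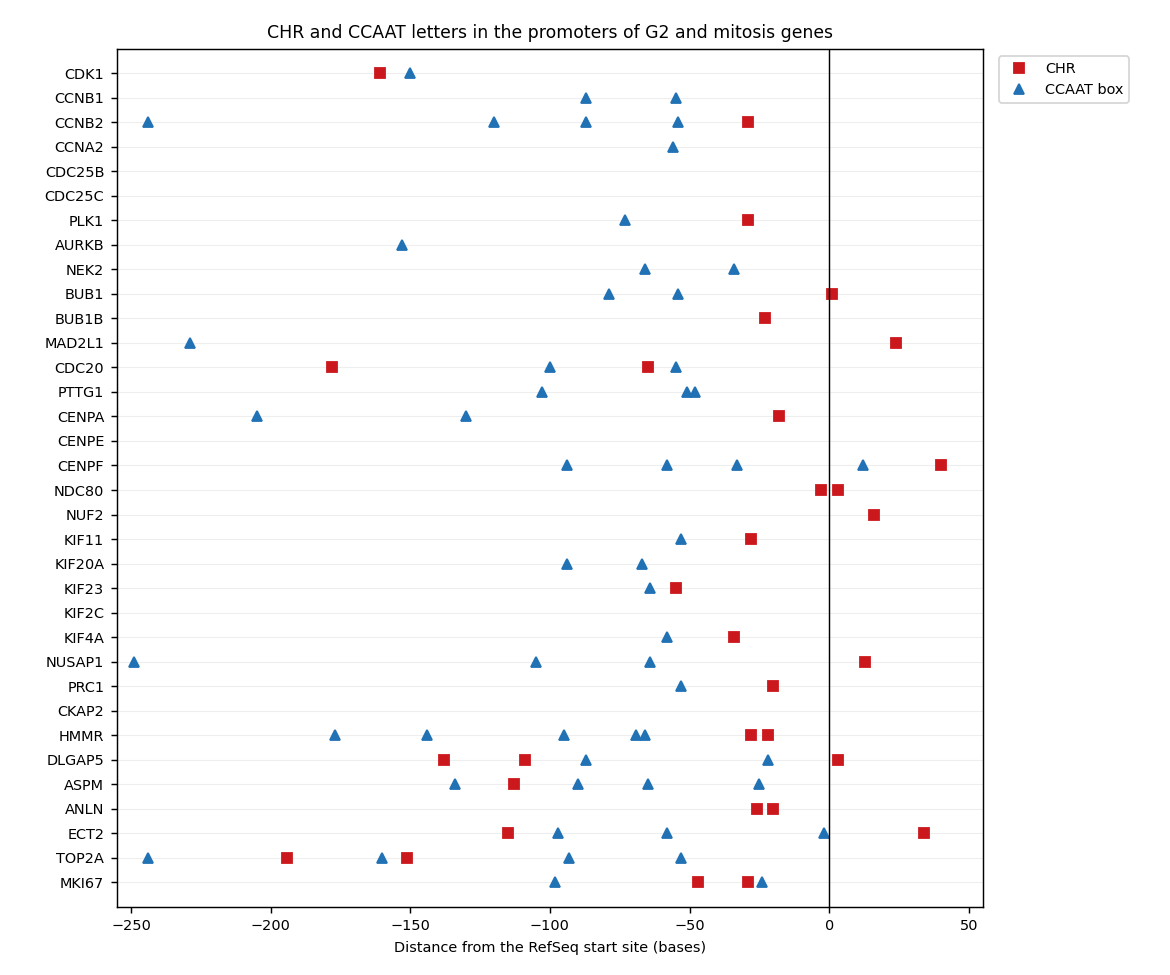
Position of CHR and CCAAT letters in the 34 matched promoters, as the distance in bases of the first base of each match from the RefSeq start site. CHR squares gather near the start site, within 50 bases of it in 18 promoters, and most CCAAT triangles lie further upstream.

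The libraries held between 17229788 and 34142465 counts. A count of 0 allows up to 3 counts, at most 0.174 counts per 1e6 counts (CPM) in any library, for counting error only. Each coculture library also held RNA of the other line. LAD2 RNA made up 1.04% to 1.19% of each HT-29 coculture library, as the median over 309 genes nearly absent from HT-29. HT-29 RNA made up 5.26% of the LAD2 coculture library, as the median over 327 genes with quartiles of 4.44% and 6.1%. The subtractions and mixtures below take the median share and the profile of the other line alone. They did not clear the markers of the other line. With the HT-29 share subtracted, 7 of 9 tested epithelial markers were still higher in LAD2 coculture and 1 was lower, at a median log2 change of 6.43. With the LAD2 share subtracted, 3 of 3 tested mast cell markers were still higher in HT-29 coculture, at a median of 8.6. How much of the other line's RNA any gene keeps after subtraction was not tested. The summed level of 13 mast cell markers was 33.1 to 33.7 CPM in HT-29 alone, 257 to 280 CPM in HT-29 coculture and 20205 to 20423 CPM in LAD2 alone. The summed level of 13 epithelial markers was 225 to 249 CPM in LAD2 alone, 1070 CPM in LAD2 coculture and 12594 to 13206 CPM in HT-29 alone. In bulk RNA, fewer cells of a type and less RNA per cell cannot be told apart.

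Both lines expressed the G2 and mitosis genes at similar total levels. The 40 genes together took 5996, 6071 and 6143 CPM in the HT-29 alone libraries and 5971, 6021 and 6022 CPM in the HT-29 coculture libraries. They took 5485, 5798 and 5644 CPM in LAD2 alone and 5834 CPM in LAD2 coculture. The sums of HT-29 alone and coculture overlapped, and the LAD2 coculture sum lay just above the highest LAD2 alone library.

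Set per length of transcript, as transcripts per 1e6 transcripts (TPM) over the union of exons, UBE2C, the ubiquitin-conjugating enzyme of the anaphase-promoting complex, led in HT-29 alone at 424 ± 20 TPM (SD, n = 3). Cyclin B1 (CCNB1) led in LAD2 alone at 412 ± 22.9 TPM and stood at 341 ± 2.25 TPM in HT-29 alone (SD, n = 3 each). Securin (PTTG1) stood at 285 ± 17.5 TPM in HT-29 and 292 ± 15.3 TPM in LAD2, and CDC20 at 309 ± 3.8 and 257 ± 6.15 TPM (SD, n = 3 each). Apart from PRC1 and NUSAP1, the lowest level in both lines was that of CDC25C, at 24.6 ± 0.58 TPM in HT-29 and 16.2 ± 0.572 TPM in LAD2 (SD, n = 3 each). Next came the kinetochore motor CENPE in HT-29, at 24.8 ± 1.46 TPM, and in LAD2 the checkpoint protein MAD2L1, at 28 ± 1.72 TPM, and CENPE, at 28.4 ± 2.63 TPM (SD, n = 3 each). CDC25C and CENPE did not differ beyond their spread in HT-29, nor did MAD2L1 and CENPE in LAD2.

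PRC1, which bundles microtubules of the spindle midzone, and NUSAP1, a spindle protein, are uncertain. PRC1 had 1.63 to 2.52 CPM in HT-29 alone and NUSAP1 12.1 to 14 CPM. Of their exon bases, 65.2% in PRC1 and 72.8% in NUSAP1 also belong to another annotated gene, and the gene over PRC1 on the same strand (ENSG00000284946) took 7.21 to 8.03 CPM in the same libraries. Of the other 38 members, 27 had no exon base in common with another gene. The 12 near-identical copies of members, among them KIF4B and PTTG2, summed to at most 0.638 CPM in any library.

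**Figure D2:**
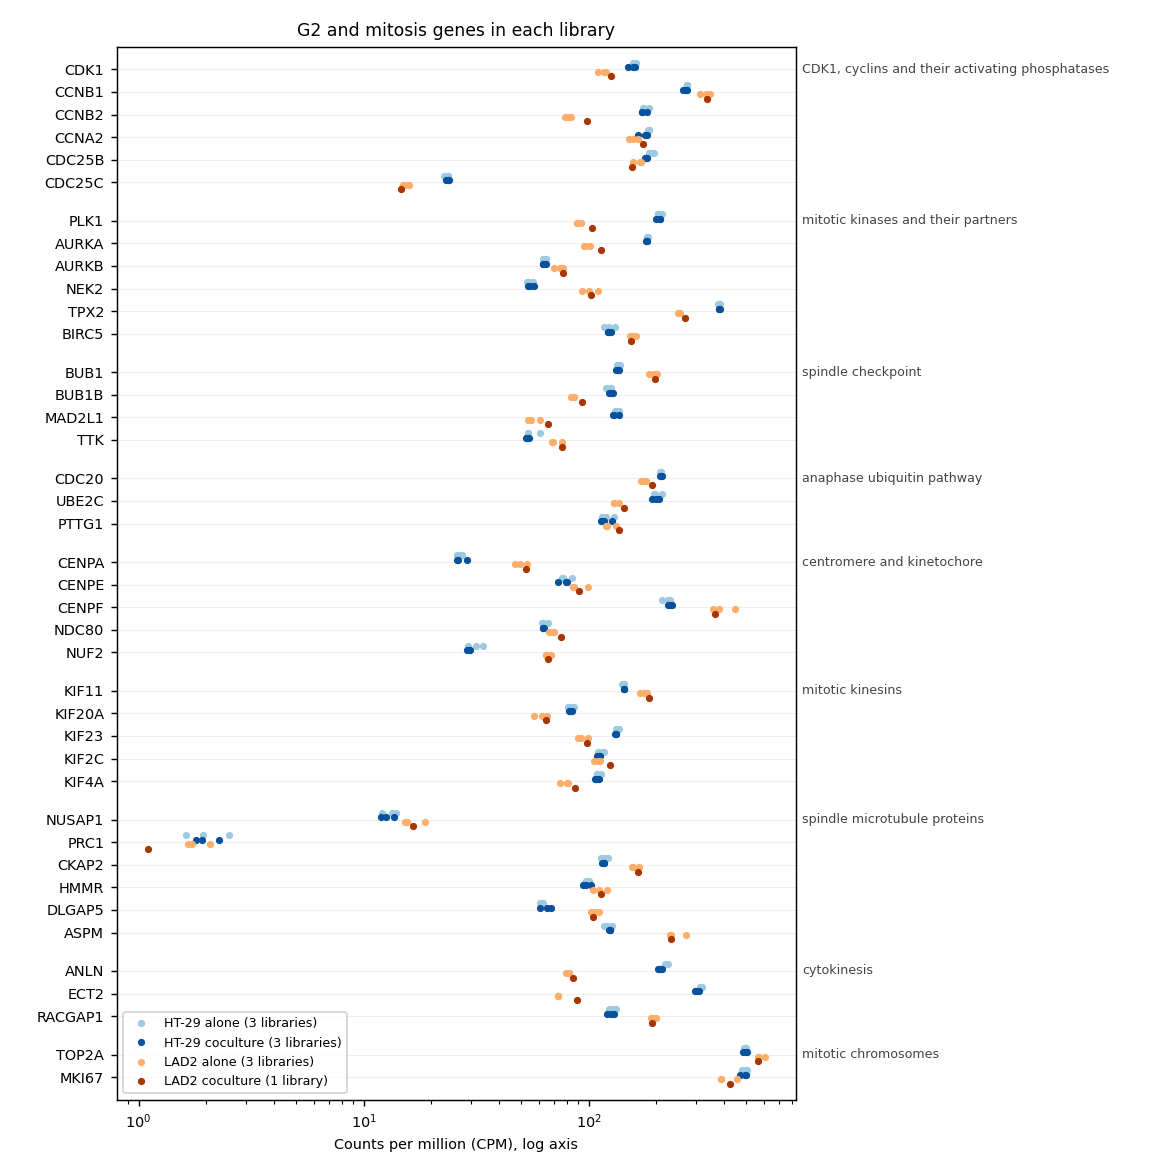
Level of each of the 40 genes in every library, in CPM on a log axis, with 3 points for HT-29 alone, HT-29 coculture and LAD2 alone and 1 for LAD2 coculture. Alone and coculture points of HT-29 lie on top of each other for most genes, ECT2 and ANLN stand well apart between the lines, and PRC1 lies lowest.

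The comparison of the lines alone gives the starting level of each gene. HT-29 carried more RNA of CDK1, most cyclins and the CDC25 phosphatases and of the cytokinesis genes ECT2 and ANLN, and LAD2 carried more of the 5 kinetochore members and of 5 of the 6 spindle microtubule members. At an adjusted p under 0.05 (edgeR quasi-likelihood F test, Benjamini-Hochberg over 15830 genes), 18 members were higher in HT-29 and 19 were higher in LAD2. Together they are 92.5% of the members, near the 92.4% of all genes called in either direction, with 44.9% of all genes higher and 47.5% lower in HT-29. The members stood closer together between the lines than most genes. Their median absolute log2 ratio was 0.50 against 1.35 over all genes tested, and 15% of members against 59.4% of all genes were called with a ratio of at least 2-fold. Line, medium and RNA kit (mini for HT-29, micro for LAD2) differ together and cannot be told apart.

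ECT2, the guanine exchange factor that turns on RhoA at the cleavage furrow (ENSG00000114346, GRCh38 chromosome 3, 172750682 to 172821474), differed most. It stood at 313, 316 and 318 CPM in HT-29 alone and at 73.1, 73.2 and 73.4 CPM in LAD2 alone. The groups were far apart, at a log2 ratio of 2.12 ± 0.0386 (SE, edgeR adjusted p = 2.06e-38). ANLN, the scaffold anillin of the contractile ring (ENSG00000011426, chromosome 7, 36389806 to 36453791), stood at 218, 225 and 222 CPM in HT-29 alone against 81.6, 82 and 79.2 CPM in LAD2 alone, a log2 ratio of 1.47 ± 0.0384. RACGAP1, which works with ECT2 at the midzone, went the other way, at 123 to 132 CPM in HT-29 alone and 189 to 199 CPM in LAD2 alone. Cytokinesis genes therefore did not differ in one direction.

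MAD2L1, the checkpoint protein that binds CDC20, stood at 137, 133 and 131 CPM in HT-29 alone and 53.8, 55.3 and 60.5 CPM in LAD2 alone (log2 ratio 1.25 ± 0.0447, SE). PLK1, the Polo kinase of mitotic entry, stood at 203, 203 and 211 CPM in HT-29 alone and 92.2, 88.5 and 88.4 CPM in LAD2 alone (1.21 ± 0.0388, SE). CCNB2, cyclin B2, stood at 175, 185 and 177 CPM against 78.2, 81.2 and 83.7 CPM (1.16 ± 0.0403, SE). These 3 genes, ECT2 and ANLN are the 5 members at least 2-fold higher in HT-29.

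Some functional partners differed in opposite directions and others in the same one. CCNB1 was higher in LAD2, at 311, 333 and 346 CPM against 273, 274 and 273 CPM in HT-29 alone (log2 ratio -0.26 ± 0.039, SE), while CCNB2 and CDK1, the kinase that both cyclins activate, were higher in HT-29. CDK1 stood at 159, 162 and 158 CPM in HT-29 alone and at 110, 117 and 119 CPM in LAD2 alone (0.48 ± 0.0393, SE). AURKA, the kinase of the spindle poles, and TPX2, its activator, were higher in HT-29 (0.91 ± 0.0389 and 0.60 ± 0.0363, SE). AURKB, the kinase of the chromosomal passenger complex, and BIRC5 (survivin), a subunit of it, were higher in LAD2 (-0.20 ± 0.0441 and -0.33 ± 0.0413, SE). Of the checkpoint kinases and their partners, BUB1 and TTK were higher in LAD2 and BUB1B and MAD2L1 in HT-29.

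Of the centromere and kinetochore members, 5 of 5 were higher in LAD2. Of 27 further kinetochore and passenger genes of the wider pathway, 16 were higher in HT-29 and 9 in LAD2, with a median log2 ratio of 0.44. NUF2, a subunit of the NDC80 complex that holds microtubules (ENSG00000143228, chromosome 1, 163266576 to 163355764), stood at 34, 31.7 and 29.1 CPM in HT-29 alone and 64.8, 64.6 and 68.2 CPM in LAD2 alone. It was the only member at least 2-fold higher in LAD2 (-1.05 ± 0.0523, SE). CENPA, the histone H3 variant of the centromere, stood at 26.7, 26 and 27.3 CPM against 47.1, 49.3 and 53.2 CPM (-0.90 ± 0.0547, SE). NDC80 itself differed least of the 5, at -0.11 ± 0.0444 (SE, edgeR adjusted p = 0.0224). ASPM, which gathers microtubule minus ends at the spindle poles, stood at 117, 121 and 127 CPM in HT-29 alone and 233, 270 and 229 CPM in LAD2 alone (-0.99 ± 0.0437, SE).

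The chromosome proteins TOP2A, the topoisomerase that untangles sister DNA, and MKI67 (Ki-67), which coats mitotic chromosomes, differed little. TOP2A stood at 489, 493 and 498 CPM in HT-29 alone and at 571, 606 and 563 CPM in LAD2 alone. MKI67 stood at 483, 481 and 506 CPM in HT-29 alone and at 389, 454 and 389 CPM in LAD2 alone. Neither pair of groups overlapped, and the log2 ratios were -0.22 ± 0.0375 and 0.27 ± 0.0425 (SE). PTTG1, KIF2C and PRC1 were the 3 members that passed in neither direction.

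LAD2 alone library 2 was high for long members. It held 447 CPM of CENPF against 378 and 358 CPM in the others, 454 CPM of MKI67 against 389 and 389, and 270 CPM of ASPM against 233 and 229. Across the 10 longest members its level stood at a median of 0.08 on the log2 scale from the mean of the other two libraries, and across the 10 shortest at -0.03. Over all genes, the 2335 longest stood at 0.04 and the 2335 shortest at -0.04. The part of transcript length in any member's difference was not tested.

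**Figure D3:**
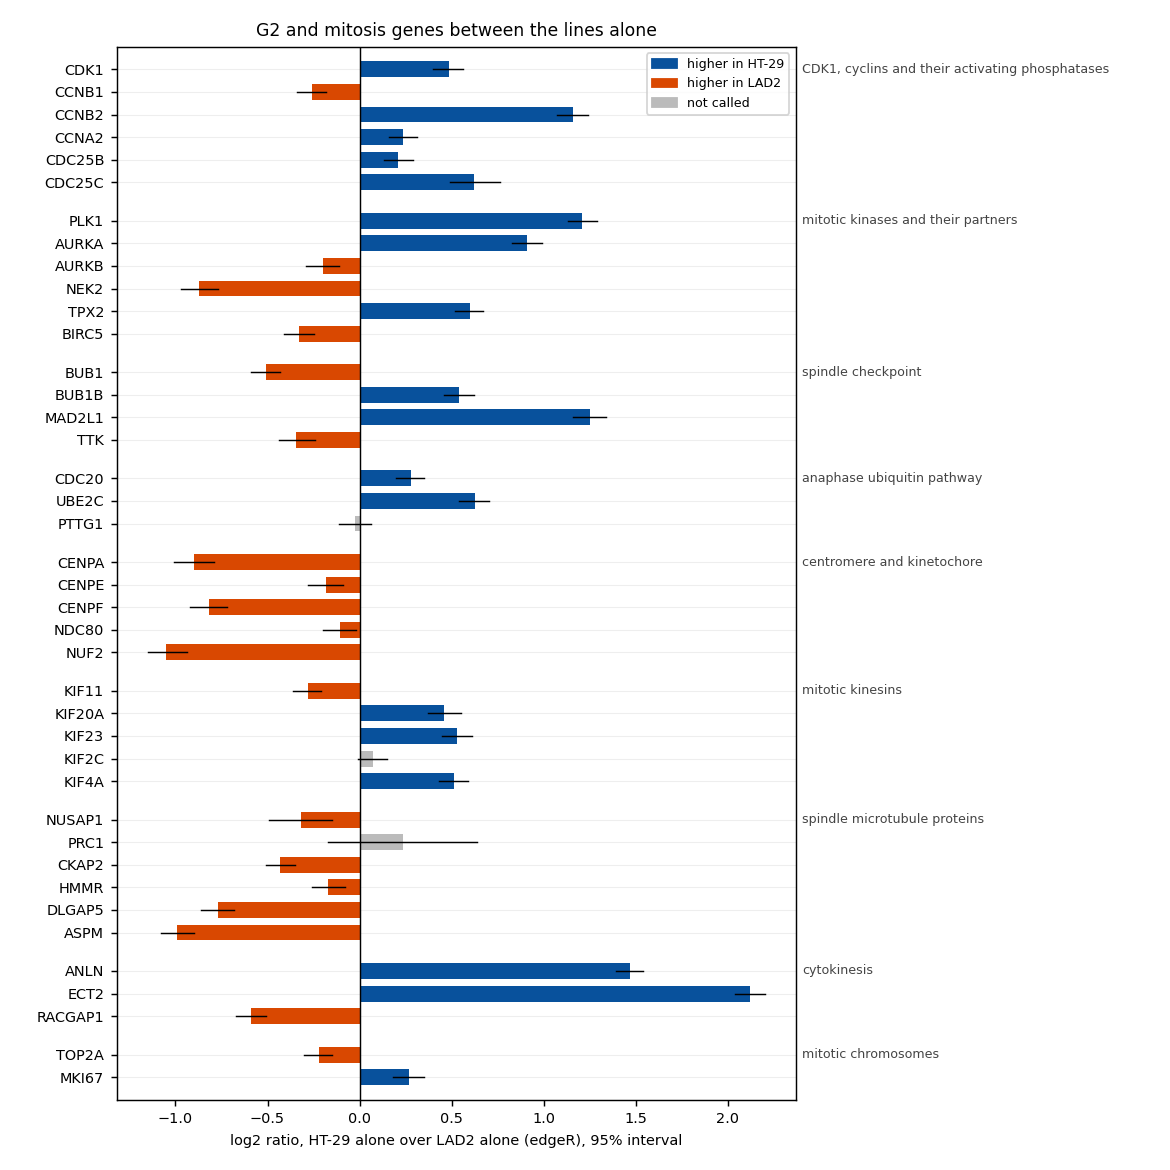
Log2 ratio of HT-29 alone over LAD2 alone for each gene from the edgeR fit, as bars from 0 with 95% intervals, ordered by role (3 libraries per line). All 5 kinetochore members point toward LAD2, CDK1 and 4 of the other 5 genes of its group point toward HT-29, and ECT2 has the longest bar.

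In HT-29 coculture, nearly all G2 and mitosis genes stayed near their level alone. Contact, the coculture medium and the parting of the lines cannot be told apart in the response of either line. No member was higher in coculture and 4 were lower, each by a small amount. They were ANLN, the mitotic entry phosphatase CDC25B, ECT2 and cyclin A2 (CCNA2). These are 10% of the members, against 2.94% of the 14070 genes tested that were lower and 5.83% that were higher (edgeR quasi-likelihood F test, adjusted p under 0.05). At an unadjusted p under 0.05 there were 7 members, against 2859 of the 14070 genes tested.

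ANLN stood at 218, 225 and 222 CPM alone and at 208, 211 and 204 CPM in coculture. All 3 coculture libraries lay below all 3 alone libraries, and the log2 change was -0.11 ± 0.0222 (SE, edgeR adjusted p = 0.000353). CDC25B (ENSG00000101224, chromosome 20, 3786772 to 3806121) stood at 195, 186 and 190 CPM alone and at 178, 179 and 181 CPM in coculture. These groups did not overlap either, with a log2 change of -0.10 ± 0.0235 (SE, edgeR adjusted p = 0.00332).

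ECT2 stood at 313, 316 and 318 CPM alone and at 298, 308 and 303 CPM in coculture, a log2 change of -0.07 ± 0.0204 (SE, edgeR adjusted p = 0.0185). CCNA2, the cyclin of S and G2 phase (ENSG00000145386, chromosome 4, 121816444 to 121823933), stood at 184, 185 and 185 CPM alone and at 178, 182 and 166 CPM in coculture, a log2 change of -0.08 ± 0.0258 (SE, edgeR adjusted p = 0.0363). Both pairs of groups were apart, and the third CCNA2 coculture library lay lowest. Without it the CCNA2 change was -0.05 (edgeR adjusted p = 0.292), and without the first coculture library the ECT2 change was -0.06 (edgeR adjusted p = 0.151). Without HT-29 alone library 2 neither passed (edgeR adjusted p = 0.0744 for ECT2 and 0.122 for CCNA2), and CCNA2 did not without alone library 1 (edgeR adjusted p = 0.0585). ANLN and CDC25B passed whichever 1 of the 6 libraries was left out. Only these 4 members had coculture libraries all below the alone libraries, and none had them all above, against 8.91% and 19.6% of 10034 genes with a mean of at least 10 CPM.

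A mixture of both lines at the measured share would have moved each of these 4 genes by 0.01 or less in size on the log2 scale. The coculture level was 0.942 of the mixture level for ANLN, 0.943 for CDC25B, 0.952 for CCNA2 and 0.969 for ECT2. With the LAD2 share subtracted, ANLN (-0.10, edgeR adjusted p = 0.0068) and CDC25B (-0.09, edgeR adjusted p = 0.017) passed, while CCNA2 (-0.08, edgeR adjusted p = 0.105) and ECT2 (-0.05, edgeR adjusted p = 0.156) did not. In that fit 1.43% of all genes were lower.

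Over all members, small values below 0 were frequent. In all, 35 of the 40 log2 changes lay below 0 (87.5%), against 49.5% of all genes tested, with a median of -0.03 for the members and 0 for all genes. Set against the mixture level in CPM, which has no TMM factors, 27 members lay below it and 13 above. The size was small as well, at a median absolute log2 change of 0.03 for the members and 0.06 for all genes. For the 34 genes that did not pass, leaving PRC1 and NUSAP1 aside, the 95% intervals ran from -0.22 at the lowest to 0.13 at the highest. Changes within that range are not shown to be absent.

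The defining genes of mitotic entry and exit show this closeness. CCNB1 stood at 273, 274 and 273 CPM alone and at 262, 273 and 271 CPM in coculture, and CDK1 at 159, 162 and 158 and at 158, 160 and 149 CPM. PLK1 stood at 203, 203 and 211 CPM alone and at 207, 208 and 200 CPM in coculture, and AURKB at 62.7, 64.6 and 64.5 and at 62.9, 64.6 and 62.6 CPM. In each of them the groups overlapped. CDC20, the activator of the anaphase-promoting complex, stood at 207, 210 and 209 CPM alone and at 208, 209 and 211 CPM in coculture. MKI67 stood at 483, 481 and 506 CPM and at 496, 472 and 502 CPM, and TOP2A at 489, 493 and 498 CPM and at 487, 501 and 503 CPM, again overlapping. By role, the kinetochore, kinesin, checkpoint, spindle, anaphase, kinase and chromosome groups had 0 members that passed. The cytokinesis group had 2 of 3 lower and the CDK1 and cyclin group 2 of 6, against 2.94% of all genes. With the LAD2 share subtracted these were 1 of 3 and 1 of 6, against 1.43% of all genes.

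The wider pathway in HT-29 gave few calls. Among 22 regulators of these genes (FOXM1, the MuvB subunits and the E2F and RB families), 27 further kinetochore and passenger genes, 26 further kinesin, spindle and cytokinesis genes, 18 condensin and cohesin genes and 14 tested CDK inhibitors and G1 cyclins, 0 passed in either direction. At an unadjusted p under 0.05 these lists had 3, 5, 1, 2 and 2 genes, against 2859 of the 14070 genes tested. Of 16 entry kinases and phosphatases, CHEK2, a DNA damage checkpoint kinase, was higher, at 46.2, 51.1 and 49.6 CPM alone and 55.7, 56.7 and 52.9 CPM in coculture (log2 change 0.15 ± 0.0397, SE, edgeR adjusted p = 0.00811). Of 18 anaphase-promoting complex and separase genes, the subunit ANAPC13 was lower, at 42.5, 43.5 and 44.2 CPM alone and 40, 37.5 and 38.5 CPM in coculture (-0.18 ± 0.0414, SE, edgeR adjusted p = 0.00278). Both passed with the LAD2 share subtracted, at 0.17 and -0.17. CDKN1A, the CDK inhibitor p21, stood at 18.5, 17.3 and 17.5 CPM alone and 16.3, 14.7 and 16.6 CPM in coculture (-0.17 ± 0.0646, SE, edgeR adjusted p = 0.106). With the LAD2 share subtracted it passed as lower (-0.22, edgeR adjusted p = 0.047), and with the mixture offset it did not (-0.22, edgeR adjusted p = 0.0503).

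In LAD2, 5 members were higher in coculture with HT-29 and 0 were lower. They were CCNB2, ECT2, AURKA, PLK1 and MAD2L1, up by 0.20 to 0.26 on the log2 scale, and all of them are among the members higher in HT-29 alone. These are 12.5% of the members, against 14.1% of the 15821 genes tested that were higher and 6.75% that were lower, so that the share of higher members was near that of all genes. At an unadjusted p under 0.05 there were 9 members, against 4779 of the 15821 genes tested. The test rests on 1 coculture library, which was taken to vary like the 3 alone libraries. Without LAD2 alone library 1, and likewise without library 2, CCNB2 and ECT2 were the 2 members higher. Of all genes, 1825 of 15736 and 1958 of 15668 were higher in these fits. Without library 3 there were 11 members higher and 1 lower (CENPF), against 2773 and 1674 of 15655 genes. DESeq2 called CCNB2 and ECT2 higher, and 1485 of all 15821 genes.

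CCNB2 (ENSG00000157456, chromosome 15, 59105078 to 59125045) stood at 78.2, 81.2 and 83.7 CPM alone and at 98 CPM in coculture. The coculture library lay above all 3 alone libraries, at a log2 change of 0.26 ± 0.0685 (SE, edgeR adjusted p = 0.00337). A mixture with 5.26% HT-29 RNA would have given 86.2 CPM, and the observed level was 1.14 times that. With the HT-29 share subtracted, CCNB2 was the 1 member that passed, at 0.21 ± 0.0691 (SE, edgeR adjusted p = 0.0476), in a fit that called 5.92% of all genes higher and 4.47% lower. With the mixture as an offset in the fit it did not pass (0.18, edgeR adjusted p = 0.133), and 0 members did, although CCNB2 stayed above the mixture.

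ECT2 stood at 73.1, 73.2 and 73.4 CPM alone and at 88.5 CPM in coculture, a log2 change of 0.26 ± 0.0684 (SE, edgeR adjusted p = 0.00348). The mixture would have given 86 CPM. The observed level was 1.03 times the mixture, and with the HT-29 share subtracted the change was 0.05 ± 0.0699 (SE, edgeR adjusted p = 0.745). ECT2 is also the member with the highest ratio of HT-29 to LAD2.

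AURKA (ENSG00000087586, chromosome 20, 56369389 to 56392337) stood at 95.6, 96.3 and 101 CPM alone and at 113 CPM in coculture (0.20 ± 0.0671, SE, edgeR adjusted p = 0.0246). PLK1 (ENSG00000166851, chromosome 16, 23677656 to 23690367) stood at 92.2, 88.5 and 88.4 CPM alone and at 103 CPM in coculture (0.20 ± 0.0675, SE, edgeR adjusted p = 0.0314). MAD2L1 (ENSG00000164109, chromosome 4, 120055608 to 120067074) stood at 53.8, 55.3 and 60.5 CPM alone and at 65.9 CPM in coculture (0.21 ± 0.0753, SE, edgeR adjusted p = 0.0412). In each the coculture library was the highest of the 4, and the mixture would have given 102, 95.8 and 60.6 CPM. None of the 3 passed with the HT-29 share subtracted, at 0.17, 0.13 and 0.14 (edgeR adjusted p = 0.123, 0.277 and 0.304), nor without LAD2 alone library 1 or without library 2.

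Most other members stayed within or near the range of LAD2 alone. The coculture library lay above all 3 alone libraries for 17 members (42.5%) and below them for 3 (CDC25B, CDC25C and PRC1), against 46.6% and 26.9% of 10034 genes with a mean of at least 10 CPM. The median log2 change was 0.06 for the members and 0 for all genes. For the 33 other genes that did not pass, leaving PRC1 and NUSAP1 aside, the 95% intervals ran from -0.31 to 0.30, wider than in HT-29.

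Among them, CDK1 stood at 110, 117 and 119 CPM alone and 126 CPM in coculture, and CCNB1 at 311, 333 and 346 CPM alone and 337 CPM in coculture. CCNA2 stood at 151, 158 and 165 CPM alone and 175 CPM in coculture (0.13 ± 0.0654, SE, edgeR adjusted p = 0.158). CDC20 stood at 179, 170 and 172 CPM alone and 192 CPM in coculture (0.14 ± 0.0638, SE, edgeR adjusted p = 0.135). CDK1, CCNA2 and CDC20 lay above their alone libraries without passing, and CCNB1 lay within them. AURKB, at 77.3, 74.8 and 70.4 CPM alone and 77.2 CPM in coculture, lay within them too, as did TOP2A, at 571, 606 and 563 CPM alone and 567 CPM in coculture, and MKI67, at 389, 454 and 389 CPM alone and 424 CPM in coculture. CENPA (47.1, 49.3 and 53.2 CPM alone, 52.5 CPM in coculture), NUF2 (64.8, 64.6 and 68.2 CPM, then 65.9 CPM) and ASPM (233, 270 and 229 CPM, then 233 CPM) did as well.

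**Figure D4:**
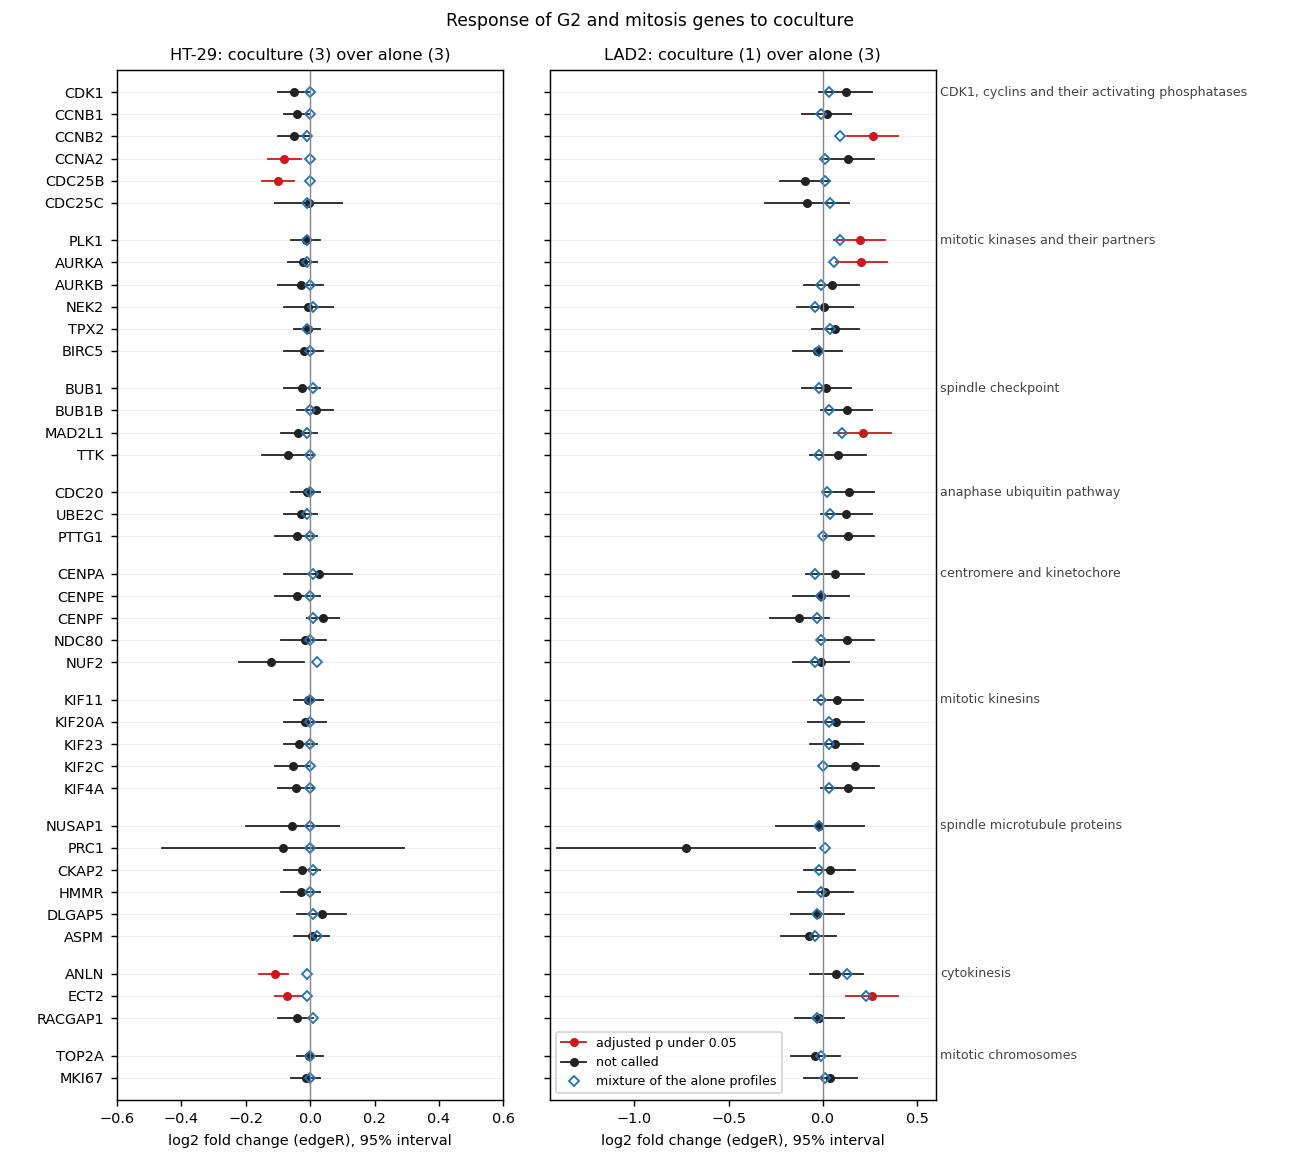
Log2 fold change of coculture over alone for each gene with its 95% interval, for HT-29 (left) and LAD2 (right), with calls in red and the change that a mixture of the alone profiles would give as open diamonds. The axes of the panels differ in range. HT-29 intervals are short and the 4 red points lie left of 0 and of their diamonds, whereas the red ECT2 point of LAD2 lies next to its diamond at 0.23.

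In the wider pathway in LAD2, 5 of 22 regulators were higher (22.7%, against 14.1% of all genes) and 0 lower, with a median log2 change of 0.10 against 0 for all genes. With the HT-29 share subtracted, 3 of 21 tested regulators were higher (14.3%, against 5.92% of all genes). MYBL2, which encodes B-MYB, the MYB protein that works with MuvB at CHR promoters, stood at 43.7, 46 and 42.9 CPM alone and 77.1 CPM in coculture. This is a log2 change of 0.79 ± 0.0718 (SE, edgeR adjusted p = 3.62e-12), while the mixture would have given 58.7 CPM. E2F1, an activator of S phase genes, stood at 38.5, 35.7 and 34.8 CPM alone and 50.7 CPM in coculture (0.47 ± 0.0792, SE, edgeR adjusted p = 8.5e-06), with 40.6 CPM for the mixture. With the HT-29 share subtracted both passed, MYBL2 at 0.53 and E2F1 at 0.37 (edgeR adjusted p = 1.32e-06 and 0.0012). Both are higher in HT-29 alone, at means of 320 and 118 CPM, and the part of HT-29 RNA left after subtraction was not tested. E2F5 stood at 0.0442 to 0.433 CPM alone and 1.66 CPM in coculture, at the 1.69 CPM of the mixture.

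Of 16 entry kinases and phosphatases, 4 were higher (25% against 14.1% of all genes) and 0 lower, and with the HT-29 share subtracted 4 were higher. CHEK1, the replication checkpoint kinase, stood at 27.8, 28.5 and 29.7 CPM alone and 42.2 CPM in coculture (0.55 ± 0.0823, SE, edgeR adjusted p = 9.64e-07). CDC25A, the phosphatase that activates CDK2 and CDK1, stood at 11.5, 12.7 and 12.1 CPM alone and 17.8 CPM in coculture (0.55 ± 0.112, SE, edgeR adjusted p = 0.000178). WEE1, the kinase that holds CDK1 inactive, stood at 64.6, 61.8 and 60.8 CPM alone and 76.1 CPM in coculture (0.28 ± 0.071, SE, edgeR adjusted p = 0.00295). All 3 lay above their alone libraries, and with the HT-29 share subtracted they passed at 0.40, 0.37 and 0.26 (edgeR adjusted p = 0.000967, 0.0297 and 0.0112). With the mixture offset CHEK1 and WEE1 passed and CDC25A did not (0.29, edgeR adjusted p = 0.123).

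Of 15 CDK inhibitors and G1 cyclins, 5 were higher (33.3% against 14.1% of all genes) and 0 lower, and with the HT-29 share subtracted 4 of 14 tested were higher. CCND1, cyclin D1, stood at 10.5, 10.4 and 11.2 CPM alone and 27.4 CPM in coculture, with 18.6 CPM for the mixture, and passed with the HT-29 share subtracted (0.90, edgeR adjusted p = 9.01e-08). CDK6 had 0, 0.0481 and 0 CPM alone and 4.14 CPM in coculture, below the 7.47 CPM of the mixture. CDKN2A was higher by 0.64 ± 0.0977 (SE, edgeR adjusted p = 1.35e-06) and did not pass with the HT-29 share subtracted (0.27, edgeR adjusted p = 0.0927). Of 18 condensin and cohesin genes, 4 were higher (22.2% against 14.1% of all genes) and 2 with the HT-29 share subtracted (11.1% against 5.92%), with the cohesin subunit RAD21 at 0.30 ± 0.0619 and the cohesin stabiliser CDCA5 (sororin) at 0.27 ± 0.0647 (SE, edgeR adjusted p = 0.000189 and 0.00131). RAD21 and CDCA5 were those 2, at 0.20 and 0.27.

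In the remaining lists of the wider pathway the share of higher genes was below the 14.1% of all genes. Of 27 further kinetochore and passenger genes 2 were higher (7.41%, CENPH and CENPW, each by 0.32), of 26 further kinesin, spindle and cytokinesis genes 1 (3.85%, GTSE1, by 0.19), and of 18 anaphase-promoting complex and separase genes 1 (5.56%, UBE2S, by 0.21), with 0 lower in each. With the HT-29 share subtracted CENPH and GTSE1 passed, CENPW and UBE2S did not, and SKA2, a subunit of the kinetochore SKA complex, did (0.21, edgeR adjusted p = 0.0496). The lists then held 2, 1 and 0 higher genes (7.41%, 3.85% and 0%, against 5.92% of all genes). These lists were chosen with earlier results of the same data known.

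The responses of the lines were compared as an interaction, with the HT-29 response taken from that of LAD2. With TMM factors over the 10 libraries, 34 members were higher in LAD2 and 0 lower, against 33.7% and 7.11% of 17435 genes. In that fit the median over all genes was shifted to 0.17 and the LAD2 coculture library had a factor of 0.907, so that the members are read relative to the shift. Without HT-29 alone library 1 or 3, or without HT-29 coculture library 3, the count fell to 2 members higher. Of all genes, 2038 of 17440, 2061 of 17432 and 1954 of 17448 were higher in these fits, and 2716, 2741 and 2962 were lower. The median over all genes then lay between -0.103 and -0.09. With factors within each line, a setting chosen after seeing the data, the median over all genes was -0.007, 11 members were higher (16.6% of all genes) and 0 lower (11.9%). With the other line's RNA subtracted as well, 4 members were higher (6.37% of all genes) and 0 lower (4.62%). These 4 were CCNB2 (0.24 ± 0.062, SE, edgeR adjusted p = 0.0086), KIF2C (0.23 ± 0.0604, SE, edgeR adjusted p = 0.00839), CCNA2 (0.21 ± 0.0616, SE, edgeR adjusted p = 0.0179) and AURKA (0.17 ± 0.0576, SE, edgeR adjusted p = 0.0461).

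KIF2C, a kinesin that takes microtubules apart at centromeres, stood at 110, 106 and 112 CPM in LAD2 alone and 124 CPM in LAD2 coculture, against 110, 115 and 117 CPM in HT-29 alone and 109, 112 and 111 CPM in HT-29 coculture. It was above its alone libraries in LAD2 and overlapped them in HT-29, and it passed in neither line on its own (edgeR adjusted p = 0.0669 in LAD2). HT-29 gave most of the replicates and varied less (biological coefficient of variation 1.7%, against 4.03% in LAD2), so that the shared spread may understate that of LAD2.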

How the data were processed

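Total RNA of HT-29 and LAD2 cells was sequenced, and the authors deposited raw counts per gene without normalization. Per the submitters' processing notes, the build was hg38 and the tools were STAR 2.7.10a, FastQC 0.11.9 and DESeq2 3.24.0. The counting program and its use of strand are not stated. Identifiers, which lack part of the version suffix, were matched to GENCODE release 29, 58721 of 58721.

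The lines were fitted separately with edgeR 4.0.16 under R 4.3.3 (TMM, filterByExpr, a two-sided quasi-likelihood F test, Benjamini-Hochberg adjustment over all genes tested), with a call at an adjusted p under 0.05. All 40 members passed the filter in every comparison. The share of the other line was the median over genes at 50 CPM or more in that line and no more than 0.5 CPM in the line sampled. Whether replicates are separate cultures is not stated, and the p-values measure the spread between these libraries only, which may be technical. Values in every library were given for CDK1, CCNB1, PLK1, AURKB, CDC20, TOP2A and MKI67, for called members, for the 3 members highest and the 3 lowest between the lines, and of each other list for up to 3 called genes; KIF2C, MAD2L1 and CCNB2 between the lines, RACGAP1 and the TPM levels were chosen after their values were seen. CDKN1A, whose values in every HT-29 library were also given, was not called in the main fit and falls outside this rule. Members and lists were chosen with earlier results of these data known. Alternatives in scaling, filter, test, libraries and treatment of the other line's RNA were tried.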

Additional observations from a re-analysis of the deposited data

Results flagged for a closer look

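The change from alone to coculture differed between LAD2 and HT-29 for 11 genes when the interaction was tested in edgeR with TMM factors computed within each line, a setting chosen after seeing the data. The differences, LAD2 minus HT-29 on the log2 scale, were 0.33 for ECT2, 0.30 for CCNB2, 0.24 for MAD2L1, 0.22 for AURKA, 0.21 for KIF2C, 0.21 for CCNA2, 0.20 for PLK1, 0.17 for ANLN, 0.17 for CDK1, 0.17 for KIF4A and 0.14 for CDC20. The edgeR adjusted p ran from 8.07e-06 for ECT2 to 0.0425 for CDC20. Of all genes tested, 16.6% were higher in the same fit.

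With the other line's RNA subtracted as well, CCNB2, KIF2C, CCNA2 and AURKA passed. ECT2 (0.10, edgeR adjusted p = 0.316), MAD2L1 (0.15, edgeR adjusted p = 0.202), PLK1 (0.12, edgeR adjusted p = 0.204), ANLN (0.04, edgeR adjusted p = 0.775), CDK1 (0.15, edgeR adjusted p = 0.127), KIF4A (0.15, edgeR adjusted p = 0.143) and CDC20 (0.14, edgeR adjusted p = 0.092) did not. The LAD2 side of each difference rests on 1 coculture library.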

How the results depend on the processing

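In HT-29 the 4 lower members became 2 with the DESeq2 test, 2 with the LAD2 share subtracted, 2 with the mixture offset and 1 with 1 fit over all libraries; leaving out 1 library gave 2 to 5 (2 without alone library 2). In LAD2 the 5 higher members became 2 with upper quartile scaling, 2 with the DESeq2 test, 1 with the HT-29 share subtracted, 0 with the mixture offset and 34 with 1 fit over all libraries, where the median of the members moved from 0.065 to 0.237 and that of all genes was 0.184; leaving out 1 alone library gave 2 to 11 higher and 0 to 1 lower. In that fit TOP2A (0.13), NUF2 (0.16), BIRC5 (0.14), CENPE (0.16), DLGAP5 (0.14) and RACGAP1 (0.15) turned from below 0 to called higher. CDC25B (0.08) and ASPM (0.10) turned from below 0 to above it without a call. All of these values lay below that median of all genes. The interaction, 34 higher with a median of 0.254, gave 14 (0.115) with DESeq2 size factors, 9 higher and 1 lower (0.063) with upper quartile scaling, 0 higher and 1 lower (-0.017) with no filter on low counts, 12 (0.114) with the DESeq2 test, 16 (0.157) with the share subtracted, 11 (0.073) with factors within each line and 4 (0.082) with both; leaving out 1 library gave 2 to 36 higher, 0 to 2 lower and medians of -0.039 to 0.281. CDC25B, at 0.18 there, moved to -0.01 with upper quartile scaling, -0.09 with no filter, 0 with factors within each line, -0.01 with both and from -0.11 to 0.20 without 1 library. Between the lines the median of the members was 0.024, -0.03 with upper quartile scaling and -0.02 to 0.095 without 1 library, and the counts stayed at 18 to 19 in each direction. The cause of these moves was not tested.

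Over all genes, 820 were higher and 413 lower in HT-29; the lower count was 186 with the DESeq2 test, 151 with 1 fit, 196 with the share subtracted (236 higher), 222 with the mixture offset (192 higher) and 269 without alone library 2. In LAD2, 2230 were higher and 1068 lower, against 1485 and 469 with the DESeq2 test, 6998 and 446 with 1 fit, 902 and 681 with the share subtracted and 469 and 533 with the mixture offset; without 1 library there were 674 to 1674 lower. For the interaction, 5877 higher and 1240 lower became 3343 higher with DESeq2 size factors, 2783 and 2163 with upper quartile scaling, 1744 and 2109 with no filter, 2903 higher with the DESeq2 test, 1997 and 611 with the share subtracted, 273 lower with the mixture offset, 2890 and 2077 with factors within each line and 1110 and 805 with both; without 1 library 1954 to 6359 were higher and 1065 to 2962 lower. With the replicate number as a block, 4 members were lower in HT-29 (median -0.025), and 18 were higher and 19 lower between the lines (median 0.027). The block fit of HT-29 called 876 genes higher and 522 lower. Same-numbered HT-29 libraries deviated together with correlations of 0.05, 0.02 and 0.06, against -0.06 to 0.02 for differently numbered ones. Values this small cannot decide whether the numbers pair the libraries. No paired analysis was possible because LAD2 coculture has 1 distinct library, for the LAD2 response and the interaction.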
